A study of Mus musculus with 2 samples.

Results

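The genes described here encode the proteins of the cytosolic ribosome. They were taken by symbol: every probe set annotated to a single gene named Rpl or Rps plus a digit, or Rplp0, Rplp1, Rplp2 or Rpsa, without the Rps6k kinases and without pseudogenes. This rule found 50 of the 18193 genes that single-symbol probe sets measure, on 106 of 45101 probe sets. By symbol, 26 genes (48 probe sets) were assigned to the large subunit and 24 genes (58 probe sets) to the small subunit. These counts include paralogs of the core proteins and *Rps19bp1*, whose protein is no ribosomal subunit. The study compared gut epithelial cells of *Lrrc19* KO mice with those of WT mice to see how loss of this epithelial receptor alters gene expression in the intestine. One Affymetrix mouse array was hybridized per genotype, with RNA pooled evenly from 5 *Lrrc19* KO mice in the KO pool and from 5 WT mice in the WT pool. Both pools held 2 male and 3 female C57BL/6 mice, 6 weeks old and kept under SPF conditions, so that the genotype is the labelled difference between them. The cells were released with EDTA, and magnetic sorting then removed macrophages, dendritic cells, B cells, and cells positive for CD4 or CD8. With 1 array per genotype there is no replicate, no SD, and no test. Each difference below compares these pools and has no replicate check, the spread between mice is unknown, and precision is limited by having so few arrays.

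The cytosolic ribosome joins a small subunit, which reads the mRNA, to a large subunit, which forms the peptide bond. Each ribosomal protein is usually needed once per ribosome, and its mRNA is among the most abundant in a growing cell. Most of these mRNAs begin with a pyrimidine tract, the 5′ TOP element, through which mTORC1 and LARP1 control their translation, and many of their promoters carry binding sites for ETS factors such as GABP. In the intestine, ribosome production is highest in the dividing cells of the crypt.

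RefSeq gave a window around an annotated transcription start (250 bases before it to 50 bases after it, GRCm38.p6) for 44 of the 50 genes. The windows of 8 genes (18.2%) had a C at the annotated start followed by at least 4 further pyrimidines (C or T), against 3.01% of all 27025 genes with a window. A gene counted if any of its windows matched, and the tract was read on the strand of the gene. The count depends on the exact base annotated as the start. In *Rpl7a* and *Rps9*, for example, a run of pyrimidines crosses a start annotated at a T, and neither gene counted. Genes without a match can therefore still have a tract. The 8 matching starts are shown because the tract is the feature by which translation of this family is known to be controlled. Each line runs from 10 bases before the annotated start to 20 bases from it, with the tract in capitals.
Rpl14, chr9:120571507-120571536, plus strand: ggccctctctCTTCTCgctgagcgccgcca
Rpl35, chr2:39005112-39005141, minus strand: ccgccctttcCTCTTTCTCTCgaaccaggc
Rpl38, chr11:114668570-114668599, plus strand: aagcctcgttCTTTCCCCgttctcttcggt
Rplp2, chr7:141447641-141447670, plus strand: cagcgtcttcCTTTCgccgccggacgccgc
Rps6, chr4:86857348-86857377, minus strand: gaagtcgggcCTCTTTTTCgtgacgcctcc
Rps10, chr17:27635225-27635254, minus strand: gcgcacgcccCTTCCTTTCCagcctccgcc
Rps18, chr17:33955646-33955675, minus strand: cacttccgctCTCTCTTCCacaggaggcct
Rps27, chr3:90213629-90213658, minus strand: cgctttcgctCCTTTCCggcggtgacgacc
CCGGAAG, the core of an ETS site, or its reverse complement CTTCCGG was found on either strand in the windows of 21 genes (47.7%), against 9.93% of all genes. No window held it across the start tract. The 60 bases before the start are shown for 4 of these genes, chosen so that both subunits and both orientations appear, with the match in capitals.
Rpl19, chr11:98026650-98026709, plus strand: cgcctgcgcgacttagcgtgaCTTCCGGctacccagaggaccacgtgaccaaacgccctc
Rpl38, chr11:114668520-114668579, plus strand: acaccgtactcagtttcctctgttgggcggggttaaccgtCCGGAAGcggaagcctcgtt
Rps7, chr12:28635954-28636013, minus strand: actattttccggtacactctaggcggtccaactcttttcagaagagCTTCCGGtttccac
Rps10, chr17:27635245-27635304, minus strand: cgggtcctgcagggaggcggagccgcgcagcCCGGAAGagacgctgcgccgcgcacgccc
A match describes the letters only. Among the genes with a window that reached the floor described next, the 7 with a start tract had a median log2 difference of -0.09. The 34 such genes without one at the annotated base, which can include genes with a displaced tract, had a median of -0.14. For the ETS core the medians were -0.09 in the 21 genes with it and -0.15 in the 20 without it.

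The differences given here are log2(intensity in the *Lrrc19* KO pool) minus log2(intensity in the WT pool), and the probe set with the highest mean log2 intensity stood for its gene. The floor was the median of all probe set values, an intensity of 127, which a gene had to reach in at least 1 pool. Of the 18193 genes 12518 did so. *Lrrc19* itself gave 212 in the *Lrrc19* KO pool and 905 in the WT pool on one probe set (log2 difference -2.09). On its other probe set it gave 20.9 in the KO pool, under the floor, and 391 in the WT pool. Whether these probes lie in the deleted stretch of the gene is not known. The median over all genes was 0.01 with a robust SD of 0.27. The submitters' notes name RMA, but the values were linear intensities with a median of 131 in the KO array and 124 in the WT array, so the scaling between the arrays is unknown. The 18 probe sets for bacterial and phage spike-in RNA were all higher in the KO array, with a median difference of 0.50. Their part in the values below was not tested.

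No ribosomal protein gene at or above the floor differed 2-fold between the pools. Of 25 large subunit genes, 0 were higher in the *Lrrc19* KO pool and 0 were lower by this measure, and the same counts held for 22 small subunit genes. Over all genes, 70 (0.559%) passed 2-fold upward and 51 (0.407%) passed it downward in the KO pool, and with both arrays set to the same median this split was 53 higher and 76 lower. At 1.5-fold 1 large subunit gene (*Rpl14*) and 1 small subunit gene (*Rps4l*) were lower and none was higher, where 3.4% of all genes were lower and 2.78% were higher.

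Most of the small differences were nevertheless on one side. In the large subunit, the *Lrrc19* KO value was under the WT value in 21 of 25 genes and above it in 4, with a median log2 difference of -0.10 and a robust SD of 0.10. In the small subunit, it was under the WT value in 20 of 22 genes and above it in 2, with a median of -0.19 and a robust SD of 0.19. Over all genes, 47.9% were lower and 52.1% were higher in the KO pool. The 47 genes together had a median of -0.15. Without the paralogs and *Rps19bp1*, 19 of 21 large subunit genes (median -0.10) and 17 of 19 small subunit genes (median -0.17) were lower. In bulk RNA, fewer cells of a type and less RNA per cell cannot be told apart.

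**Figure D1:**
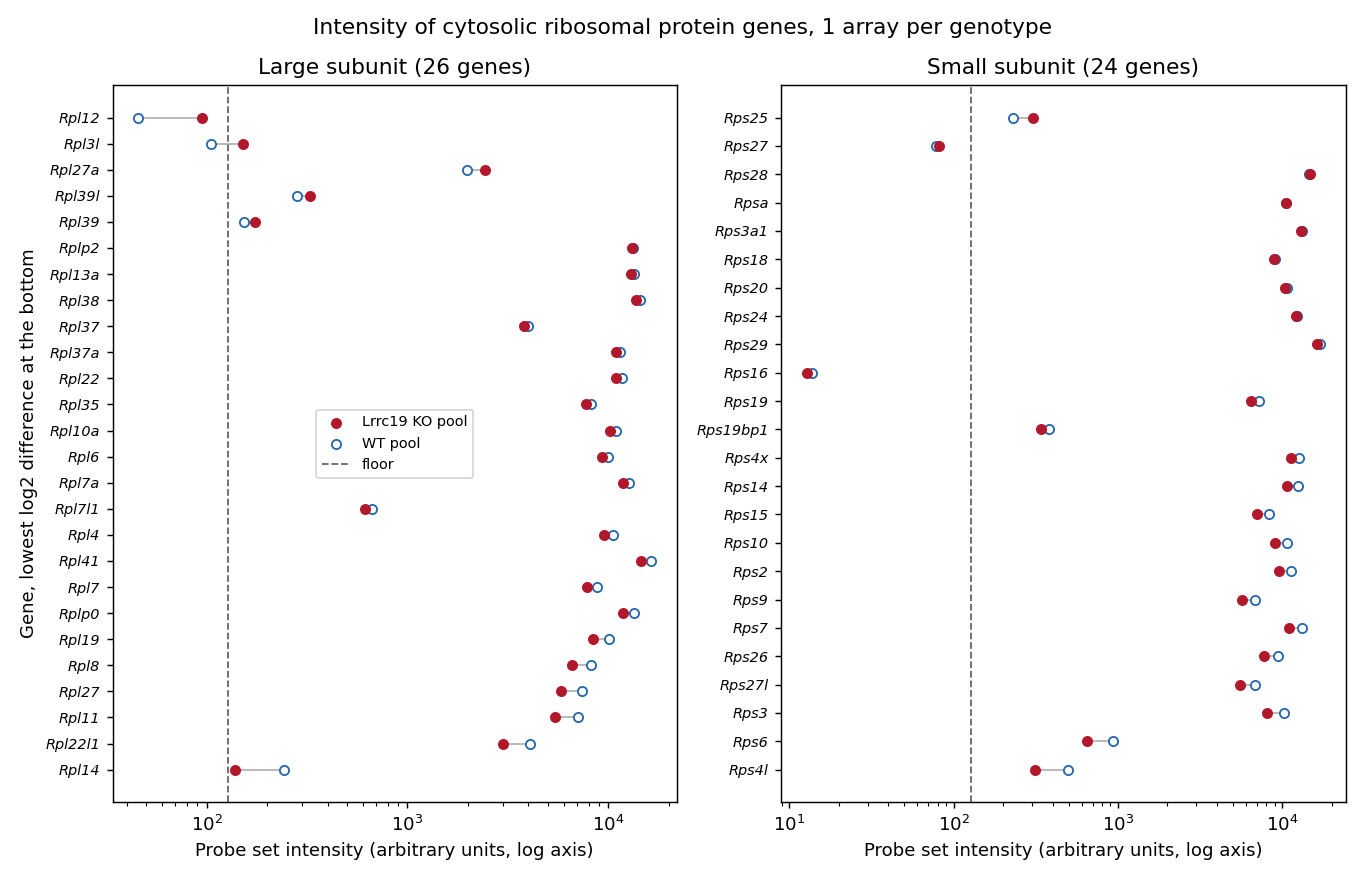
Intensity of each ribosomal protein gene in the *Lrrc19* KO pool (filled red) and the WT pool (open blue) on a log axis in arbitrary units, by subunit and ordered by the log2 difference, with the floor of 127 as a dashed line. Each point is 1 array, and in most of the bright genes the KO point lies slightly left of the WT point.

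The bright genes lay close together and the dim ones spread more widely. The 35 genes with a mean intensity of 5000 or more lay between -0.38 and 0.04, with a median of -0.15, and 34 of them were lower in the *Lrrc19* KO pool. Of all 328 genes this bright, these 35 included, 57.3% were lower, and their median was -0.03 with a robust SD of 0.19. The 9 genes with a mean under 1000 lay between -0.82 and 0.52, and 5 of them were lower. A smoothed trend of the difference on brightness over all genes was near 0 where the ribosomal protein genes lie (from -0.03 to 0.07), and 40 of the 47 were below it. Large subunit intensities ran from 138 to 14587 in the *Lrrc19* KO array and from 106 to 16310 in the WT array. Small subunit intensities ran from 306 to 16292 in the KO array and from 231 to 16929 in the WT array. In both arrays 17 large subunit genes and 18 small subunit genes reached 5000.

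**Figure D2:**
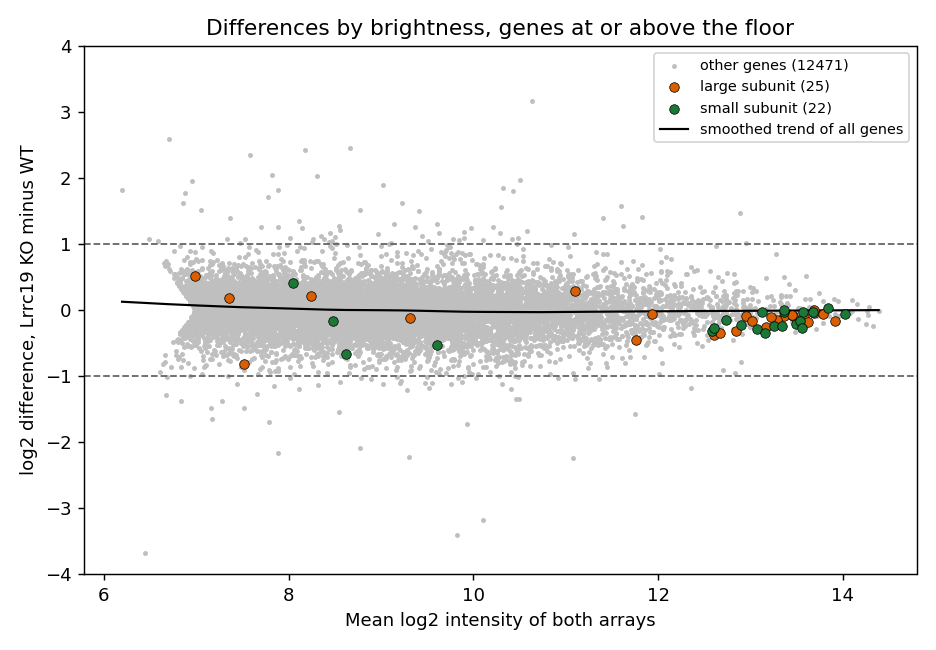
The log2 difference (*Lrrc19* KO minus WT) of every gene at or above the floor against its mean log2 intensity, with large subunit genes in orange, small subunit genes in green, and the smoothed trend of all genes as a black line. Dashed lines mark 2-fold, and the bright ribosomal protein genes lie in a narrow band at or just under 0.

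In the large subunit, the P stalk recruits the GTPases that drive elongation. *Rplp0*, its scaffold, gave 11885 in the *Lrrc19* KO pool and 13400.1 in the WT pool (log2 difference -0.17). *Rplp2*, whose protein is part of the stalk, gave 13160 in the KO pool and 13213 in the WT pool (-0.01), values that are nearly equal. *Rpl12*, at the base of the stalk, was under the floor in both pools on its own probe set (94.9 in KO and 45.7 in WT), so no fold is given. The brightest set that *Rpl12* shares with gene models gave 8972 in the KO pool and 9360 in the WT pool (-0.06), and another lay at -0.42. *Rplp1* had no probe set of its own. The set it shares with the gene model Gm13777 gave 11459 in the KO pool and 13472 in the WT pool (-0.23).

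*Rpl11*, which forms the 5S particle with *Rpl5* and binds MDM2 when ribosome assembly fails, gave 5440.4 in the *Lrrc19* KO pool and 7096 in the WT pool (-0.38). This was the lowest difference among genes of 5000 or more on single-symbol sets. The brightest set of *Rpl5*, shared with a pseudogene, gave 11539 in the KO pool and 13276 in the WT pool (-0.20). Around the exit of the peptide tunnel, *Rpl19* gave 8399 in the KO pool and 10016 in the WT pool (-0.25). *Rpl35* gave 7695 in the KO pool and 8207 in the WT pool (-0.09), and its probe sets at or above the floor ran from -0.36 to -0.03. *Rpl39*, whose protein lines the tunnel, was dim on its own probe set, with 174 in the KO pool and 154 in the WT pool (0.18). A set it shares with another gene gave 11936 in the KO pool and 12212 in the WT pool (-0.03), so the direction for *Rpl39* depends on the probe set.

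The lowest large subunit genes were *Rpl14*, *Rpl22l1*, *Rpl11*, *Rpl27*, and *Rpl8*. *Rpl14*, one of the 8 genes with a start tract, gave 138 in the *Lrrc19* KO pool and 243 in the WT pool (-0.82, 1.76-fold lower), with the KO value close to the floor. Of the 5 sets that *Rpl14* shares with a pseudogene, the brightest gave 7793 in the KO pool and 7412 in the WT pool (0.07), and the others lay between -0.37 and 0.09. The low value of *Rpl14* is thus that of 1 dim probe set. *Rpl22l1*, a paralog of *Rpl22*, gave 2973 in the KO pool and 4054 in the WT pool (-0.45), and *Rpl22* itself gave 10953 in the KO pool and 11633 in the WT pool (-0.09). Another *Rpl22* set gave 1009 in the KO pool and 1350 in the WT pool (-0.42), and the mean of its 3 sets lay at -0.21. *Rpl27* gave 5786 in the KO pool and 7357 in the WT pool (-0.35). *Rpl8*, a protein near the peptidyl transferase center, gave 6607 in the KO pool and 8232 in the WT pool (-0.32).

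At the other end, 4 large subunit genes were higher in the *Lrrc19* KO pool. They were *Rpl3l*, *Rpl27a*, *Rpl39l*, and *Rpl39*, followed by *Rplp2* near 0. *Rpl3l*, the striated muscle paralog of *Rpl3*, gave 151 in the KO pool and 106 in the WT pool (0.52). Its WT value was under the floor, and raised to the floor it put *Rpl3l* at 0.25, under *Rpl27a*. *Rpl39l*, a paralog of *Rpl39* known from male germ cells, gave 326 in the KO pool and 281 in the WT pool (0.21). *Rpl27a* gave 2426 in the KO pool and 1981 in the WT pool (0.29), but its second probe set lay at -0.19 and a brighter shared one at -0.07. *Rpl13a*, which also serves in a translational silencing complex of interferon-treated myeloid cells in human, gave 13013 in the KO pool and 13436 in the WT pool (-0.05). Its 3 other probe sets lay between -0.50 and -0.05.

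In the small subunit, all 5 measured genes at the mRNA entry, the decoding region, and the head around them were lower in the *Lrrc19* KO pool, with a median of -0.23, beside 20 of 22 and -0.19 in the whole subunit. *Rps3*, which helps to unwind mRNA at the entry and is also a DNA repair protein, gave 8098 in the KO pool and 10281 in the WT pool (-0.34), and a dim second set gave 186 in the KO pool and 316 in the WT pool (-0.76). *Rps2*, on the other side of the entry, gave 9506 in the KO pool and 11269.9 in the WT pool (-0.25). *Rps15*, with a tail that reaches the decoding center, gave 7036 in the KO pool and 8252 in the WT pool (-0.23). *Rps10*, another of the 8 genes with a start tract and with an ETS core, gave 9039.95 in the KO pool and 10636 in the WT pool (-0.23). *Rps20* gave 10394 in the KO pool and 10649 in the WT pool (-0.03).

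The lowest small subunit genes were *Rps4l*, *Rps6*, *Rps3*, *Rps27l*, and *Rps26*. *Rps4l*, a paralog of *Rps4x*, gave 313 in the *Lrrc19* KO pool and 498 in the WT pool (-0.67, 1.59-fold lower). *Rps4x* itself gave 11230 in the KO pool and 12654 in the WT pool (-0.17). *Rps6*, the substrate of the S6 kinases downstream of mTORC1, gave 651 in the KO pool and 936 in the WT pool (-0.52) on its own probe set. The brightest of the 9 sets it shares with a pseudogene gave 15001 in the KO pool and 15681 in the WT pool (-0.06), and the others lay between -0.26 and 0.10. One of these gave 11039 in the KO pool and 10329 in the WT pool (0.10), and another gave 2292 in the KO pool and 2746 in the WT pool (-0.26). None of the shared sets was as low as the single-symbol set of *Rps6*. *Rps27l*, a paralog of *Rps27* that p53 induces, gave 5499.7 in the KO pool and 6831 in the WT pool (-0.31), and its 2 other probe sets were lower as well. *Rps26*, at the mRNA exit, gave 7776 in the KO pool and 9452 in the WT pool (-0.28).

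The small subunit genes at the upper end were *Rps25*, *Rps28*, *Rpsa*, *Rps3a1*, and *Rps18*, of which *Rps25* and *Rps28* were higher in the *Lrrc19* KO pool. *Rps25*, needed for initiation at several viral internal ribosome entry sites, gave 306 in the KO pool and 231 in the WT pool (0.41), whereas a set it shares with gene models gave 7143 in the KO pool and 8227 in the WT pool (-0.20). *Rps28* gave 14835 in the KO pool and 14466 in the WT pool (0.04), and all 3 of its probe sets were above 0. *Rpsa*, also known as the laminin receptor precursor, gave 10519 in the KO pool and 10529 in the WT pool. *Rps3a1* gave 12964 in the KO pool and 13240.4 in the WT pool (-0.03). *Rps18* gave 8868 in the KO pool and 9058 in the WT pool (-0.03), but its other probe sets above the floor lay at -0.37 and -0.39. *Rps16* (12.8 in KO and 13.8 in WT) and *Rps27* (81.3 in KO and 77.5 in WT) were under the floor in both pools on their own probe sets. Both were bright on sets shared with other genes. The brightest for *Rps16* gave 14144 in the KO pool and 14576 in the WT pool (-0.04), and another lay at -0.28. For *Rps27* the shared set gave 8373 in the KO pool and 8852 in the WT pool (-0.08).

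A list of 9 genes mutated in human Diamond-Blackfan anemia, a red cell aplasia caused by faulty ribosome assembly, was used. The list is not complete, and it left out *Rps28* (0.04), *Rps29* (-0.06), and *Rpl27* (-0.35). Of the 9 listed genes, 6 were measured on their own probe sets. All 6 were lower in the *Lrrc19* KO pool (median -0.26), where 41 of the 47 ribosomal protein genes were lower (87.2%). Besides *Rpl11*, *Rps10*, and *Rps26*, these were *Rps7*, *Rps19*, and *Rps24*. *Rps7*, which has the ETS core CTTCCGG shown above, gave 10925 in the KO pool and 13226 in the WT pool (-0.28). *Rps19* gave 6479 in the KO pool and 7185 in the WT pool (-0.15). *Rps24* gave 12039 in the KO pool and 12341 in the WT pool (-0.04), and its 5 probe sets at or above the floor ran from -0.22 to 0.30. The 6 paralogs that the rule takes in beside the core proteins were divided, with 4 lower and 2 higher. *Rpl7l1*, one of them, gave 612 in the KO pool and 667 in the WT pool (-0.12). Its other probe sets lay at -0.27 and 0.21, so its direction depends on the probe set. *Rps19bp1*, which matched by symbol, encodes a protein that binds RPS19 and is no ribosomal subunit. It gave 338 in the KO pool and 379 in the WT pool (-0.17).

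**Figure D3:**
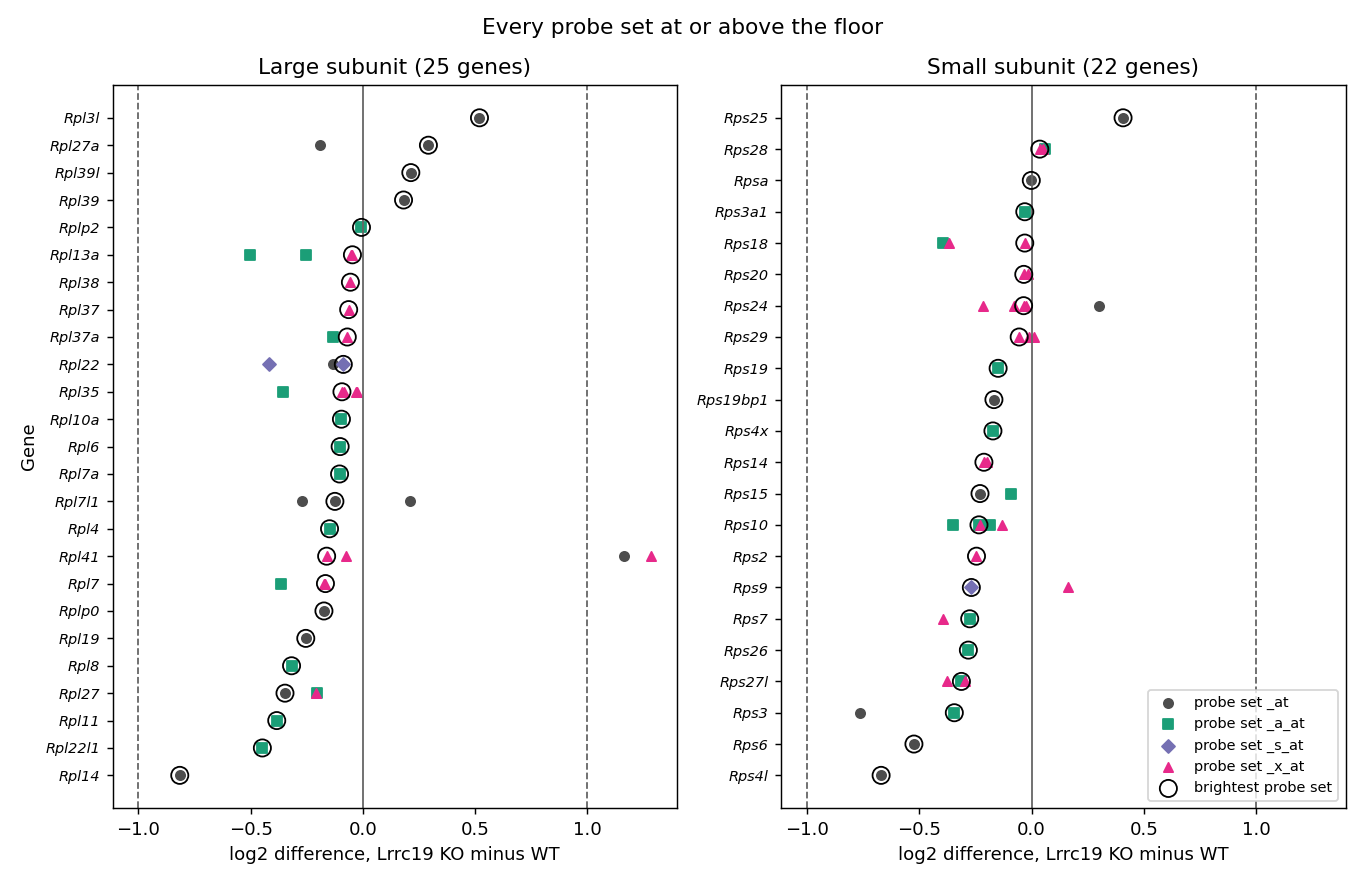
The log2 difference (*Lrrc19* KO minus WT) of every probe set at or above the floor, 1 row per gene and by subunit, with the set that represents the gene circled and the shape giving the suffix of the probe set name. Dashed lines mark 2-fold. The 2 dim sets of *Rpl41* drawn past it have WT values under the floor and lie at 0.08 and 0.43 once these are raised to the floor.

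Probe sets of the same gene did not always run the same way. Among the 21 ribosomal protein genes with at least 2 probe sets at or above the floor, the median range within a gene was 0.22, against 0.26 in 5007 genes of all kinds. As measured, the range was widest in *Rpl41* (1.44), which encodes the shortest ribosomal protein. Its brightest set gave 14587 in the *Lrrc19* KO pool and 16310 in the WT pool (-0.16) and a second bright set lay at -0.08. One of its 2 dim sets gave 135 in the KO pool and 60.2 in the WT pool (1.17). The other gave 171 in the KO pool and 70.3 in the WT pool (1.28), so that both WT values were under the floor. With these raised to the floor the 2 sets lay at 0.08 and 0.43, short of 2-fold, and the range in *Rpl41* was 0.59. The next widest ranges were those of *Rps24* (0.51) and *Rpl27a* (0.48). Many sets of these genes carry the suffix _x_at, by which Affymetrix marks probes that may cross-hybridize. The 37 such sets had a median of -0.07, the 27 with the suffix _a_at (transcripts of 1 gene) had a median of -0.23, and the 22 with the plain suffix _at had a median of -0.15. Over all probe sets these medians were -0.01, -0.07, and 0.05. The classes also differed in brightness. In the ribosomal protein genes the median intensity was 8963 for _x_at, 8614 for _a_at, and 382 for _at sets. In 12 genes with both _x_at sets and _at or _a_at sets, the mean of the _x_at sets was above that of the others in 7 genes and below it in 5.

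Many core proteins had no probe set of their own. Of 79 core proteins of the mouse cytosolic ribosome, 44 (*Fau*, described further on, among them) were measured on sets with a single symbol, 27 (22 large and 5 small) on sets shared with other genes, mostly pseudogenes or gene models, and 8 were not analysed here. The shared sets also had most values under 0. In the large subunit 59 of 69 sets at or above the floor were lower in the *Lrrc19* KO pool, with a median of -0.16, and in the small subunit 21 of 30, with a median of -0.11. None passed 2-fold. The lowest gene by its brightest set was *Rpl32*, with 5725 in the KO pool and 8222 in the WT pool (-0.52), and the highest was *Rps12*, with 9910 in the KO pool and 8941 in the WT pool (0.15). These 2 genes were chosen after their values were seen. With shared sets allowed, an alternative also chosen after seeing the data, 42 of 44 large subunit genes and 22 of 26 small subunit genes were lower, with medians of -0.15 and -0.10. The order of the subunits thus depends on the probe sets, since the large subunit median lay 0.09 above the small one on single-symbol sets, whereas with shared sets this difference was -0.06.

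The mitochondrial ribosome, which is built from other proteins and translates the few mRNAs of the mitochondrial genome, had lower medians than the cytosolic one, a difference that could not be tested. In its large subunit 45 of 47 genes were lower in the *Lrrc19* KO pool, with a median of -0.39, and in its small subunit 27 of 29, with a median of -0.34. None of these 76 genes passed 2-fold, and 7 of the large and 8 of the small subunit were at least 1.5-fold lower, where 3.4% of all genes were. The lowest was *Mrps28*, with 502 in the KO pool and 923 in the WT pool (-0.88).

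**Figure D4:**
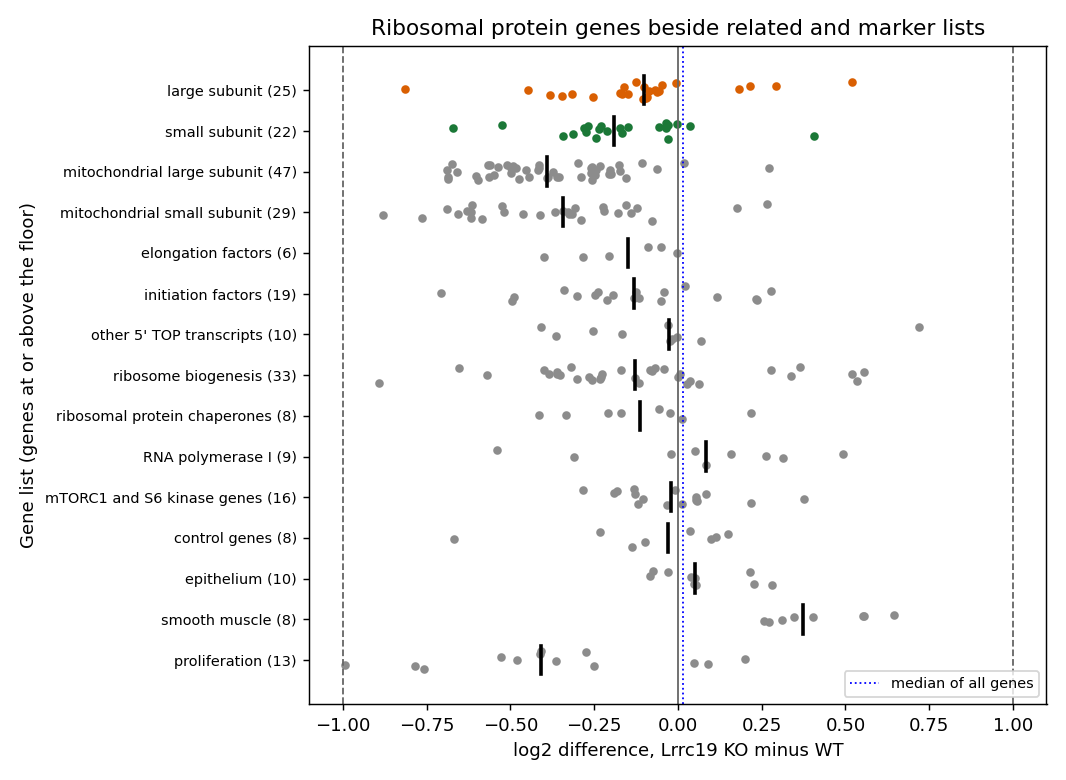
Log2 differences (*Lrrc19* KO minus WT) of single genes in the 2 cytosolic subunits (orange and green) and in related and marker lists (grey), with the number of genes at or above the floor in parentheses, a black bar at each median, and a dotted line at the median of all genes. Dashed lines mark 2-fold, which none of these genes passes.

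No factor of translation or ribosome assembly on these lists passed 2-fold. All 6 elongation factors measured were lower in the *Lrrc19* KO pool (median -0.15). *Eef1a1*, which delivers aminoacyl-tRNA, gave 16262 in the KO pool and 17319 in the WT pool (-0.09), and *Eef2*, which drives translocation, gave 8230.4 in the KO pool and 8246 in the WT pool. Of 19 initiation factors 14 were lower (median -0.13), and of 10 other mRNAs with a 5′ TOP element 8 were lower (median -0.03). Of 33 ribosome biogenesis factors 22 were lower (median -0.13), with the snoRNP protein *Nhp2* at 586 in the KO pool and 1086 in the WT pool (-0.89). The 8 ribosomal protein chaperones had a median of -0.11, the 9 genes of RNA polymerase I and its initiation factors 0.08, and the 16 mTORC1 and S6 kinase genes -0.02. *Fau*, which encodes the small subunit protein RPS30 fused to a ubiquitin-like domain and whose symbol the rule does not match, gave 13300 in the KO pool and 13287 in the WT pool.

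The marker lists gave differing values in the pools, and none of these differences could be tested. Only the smooth muscle list lay wholly on the same side of 0, and the other marker lists had genes on both sides. All 8 smooth muscle genes were higher in the *Lrrc19* KO pool (median 0.37), with a summed intensity of 73726 in the KO pool and 56210.2 in the WT pool. Of 13 proliferation genes 10 were lower (median -0.41), with sums of 10388 in the KO pool and 13275 in the WT pool. The 10 epithelial genes had a median of 0.05, with sums of 108943 in the KO pool and 104869 in the WT pool. Plasma cells are not named among the cells removed by sorting. Among leukocyte genes with a probe set, 5 of 6 T cell and 6 of 7 B and plasma cell genes reached the floor. So did 6 of 8 macrophage and dendritic cell genes. The medians of these lists were, in this order, 0.13, 0.12, and -0.23. Their sums were 1374 (KO) and 1396 (WT) for T cells, 19672 (KO) and 19381 (WT) for B and plasma cells, and 4883 (KO) and 5784 (WT) for macrophages and dendritic cells. Most of the B and plasma cell sum came from *Jchain* (8701 in KO and 9030 in WT), *Xbp1* (5529 and 5488), and *Sdc1* (4566 and 3812). Which cells gave these signals was not tested. In the same list *Ms4a1* (166 in KO and 108 in WT) and *Cd79b* (133 and 114) lay near the floor, and *Cd79a* (101 and 89.6) lay under it. All 10 markers of the labelled epithelium reached the floor, from *Cdx2* (3436 in KO and 3309 in WT) to *Krt8* (20184 in KO and 19633 in WT). Apart from *Lmod1* (522 in KO and 411 in WT), the smooth muscle genes lay within this range. They ran from *Des* (6581 in KO and 4206 in WT) to *Acta2* (14996 in KO and 12549 in WT). Both arrays thus carried strong smooth muscle signal beside that of the epithelium. The ratio of 3′ to 5′ signal, a sign of RNA quality, was 1.5 in the KO array and 1.26 in the WT array for *Gapdh*, and 1.77 in the KO array and 1.75 in the WT array for *Actb*. The part of these cells and of RNA quality in the ribosomal protein values was not tested.

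**Figure D5:**
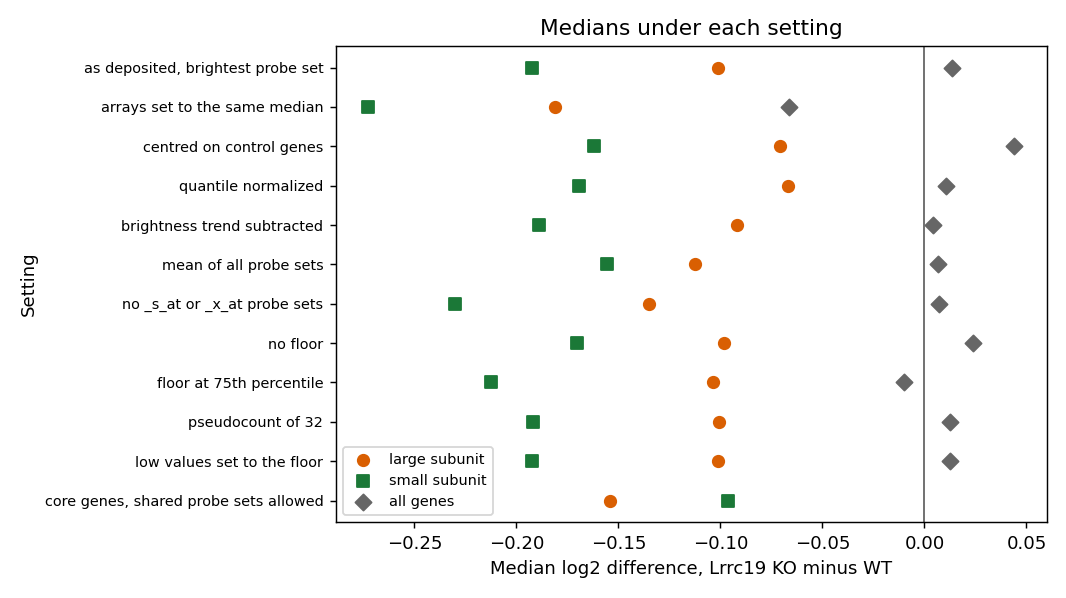
Median of the log2 difference, *Lrrc19* KO minus WT, for large subunit genes (circles), small subunit genes (squares), and all genes (diamonds) under each setting, with no value for all genes where shared probe sets were allowed. Both subunit medians lie under 0 in every setting drawn, and the median of all genes lies on either side of 0.

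The sign of the subunit medians held in the settings tried. The large subunit median ran from -0.18, with both arrays set to the same median, to -0.07, with quantile normalization. The small subunit median ran from -0.27, with both arrays set to the same median, to -0.10, with shared probe sets allowed. Setting the arrays to the same median also moved the median of all genes to -0.07, and relative to it the large subunit lay at -0.11 and the small subunit at -0.21. The number of small subunit genes that were lower ran from 21, with the same median, to 16, with quantile normalization, among settings that kept all 22 genes. Of the 47 genes, 38 kept their sign in each setting on their own probe sets that gave them a value. For 7 of the 47 there was no value without _s_at and _x_at sets, and for 5 there was none with a floor at the 75th percentile. The exceptions were *Rpl41*, *Rplp2*, *Rps18*, *Rps24*, *Rps28*, *Rps3a1*, *Rps4x*, *Rps9*, and *Rpsa*, most of which were within 0.1 of 0.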

How the data were processed

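Each array carried biotin-labelled cRNA of 1 pool, made from gut epithelial cells. The values are the authors' deposited intensity per probe set, on a linear scale. The submitters' processing notes name RMA without a version, and other steps are not given in the sources used here. Probe sets were named from GEO's platform annotation: 34945 carried 1 gene symbol, 932 several, and 9160 none. Of those with 1 symbol, the 34741 whose gene identifier was in RefSeq took its current RefSeq symbol. Values under 1 were raised to 1 and log2 was taken with Python 3.11.15, pandas 2.3.3, and statsmodels 0.14.6. Control probe sets (64) were left out. A gene was called past 2-fold, with 1.5-fold as a second rule. Alternatives changed the scaling, the probe set, the floor, or the log scale. The deposited scaling and its alternatives, but not the other settings, were also run on simulated arrays with known shifts and a preset noise. That run does not measure the precision of the values given here. The genes named were those past 2-fold, the 5 highest and 5 lowest of each subunit, those under the floor, fixed role lists, *Rpsa*, *Rps6*, *Rpl13a*, and the 3 with the widest range over probe sets. The members and lists were chosen with earlier results of these data known. Start sequences are from RefSeq.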

Additional observations from a re-analysis of the deposited data

How the results depend on the processing

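No paired analysis was possible because each genotype had 1 array, and leaving out an array was not possible for the same reason. At 2-fold 1 large subunit gene was higher without _s_at and _x_at probe sets (*Rpl41*, with a WT value under the floor) and 1 without a floor (*Rpl12*, under the floor in both pools). At 1.5-fold 1 gene of each subunit was lower. Over all genes the count of higher genes was 46 with the mean of all probe sets and 348 at 1.5-fold, and the count of lower genes was 77 without a floor and 425 at 1.5-fold. The median over all genes turned to -0.066 with both arrays set to the same median and to -0.010 with a floor at the 75th percentile. These medians were added after seeing the data. The difference between the subunit medians turned to -0.058 with shared probe sets. The cause was not tested. In single genes, signs turned in *Rpl41* (0.55 with the mean of probe sets, 1.17 without _s_at and _x_at sets), *Rps9* (0.38 with the mean), *Rps4x* (0.03 with the mean), and *Rps24* (0.02 with the mean and with quantile normalization, 0.30 without _s_at and _x_at sets). The mean also took in sets under the floor in both pools. Among these were a set of *Rps9* (85.4 in KO and 36.4 in WT, 1.23) and a set of *Rps4x* (88.3 in KO and 75.5 in WT, 0.23). *Rps9* also had a bright set at 0.16, whereas the bright set of *Rps4x* lay at -0.17. Scaling alone turned *Rplp2* (0.02 with control genes, 0.04 with quantiles), *Rpsa* (0.03 with control genes, 0.02 with quantiles), *Rps3a1* (0.01) and *Rps18* (0.004) with quantiles, and *Rps28* (-0.04) with the same median. With the brightness trend subtracted *Rpsa* lay at 0.007. Intensities near the floor limit *Rpl14*, *Rpl3l*, and *Rpl39*, and *Rpl3l* lay at 0.25 once low values were raised to the floor.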
